A study of Mus musculus with 19 samples.

Results

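The loss of c-Rel, an NF-kB subunit encoded by Rel, was examined in resting regulatory T cells (rTregs), the CD44-low part of the Foxp3-positive CD4 T cells that restrain immune responses. The comparison was made in 4 of the 19 libraries of the series, 2 wild-type (WT) and 2 c-Rel-deficient, and over all 14818 genes of the sorted-cell table that have library values. Cells were YFP-positive Tregs sorted from spleen and lymph nodes, and RNA was taken straight after sorting, with no culture. All mice were C57Bl/6 and carried Foxp3-CRE-YFP, so that the Foxp3 gene drives Cre and the WT group has the transgene too. The c-Rel-deficient group also carried floxed Rel alleles (c-Rel F/F). Cre therefore acts only once a cell expresses Foxp3, and which exons are floxed is not given in the sources used here. A value per whole gene counts every exon and cannot show the loss of a part of a transcript. Libraries used beside these were 2 p65-deficient rTreg libraries (Foxp3-CRE-YFP with p65 F/F), activated Tregs (aTregs, CD44-high; 3 WT, 2 c-Rel-deficient), and Tregs with the same 2 strain labels, the deficient ones titled c-Rel-/-, stimulated in culture through CD3 and CD28 (2 WT with water, 2 c-Rel-deficient). The age of the mice is not given. Nothing in the labels says that replicates came from separate animals, so p-values measure the spread between libraries, which may be technical.

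NF-kB transcription factors are dimers of 5 related proteins: c-Rel, p65 (Rela) and RelB carry activation domains, while p50 (Nfkb1) and p52 (Nfkb2) are cut from longer precursors. In T cells, antigen receptor and costimulatory signals free c-Rel and p65 dimers from IkB proteins, and the dimers bind kappa B sites near their targets. c-Rel is best known in Tregs for its part in switching on Foxp3 during development in the thymus. Resting Tregs recirculate through lymphoid organs and receive weaker antigen receptor signals than activated Tregs.

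Values are RPKM, a read count scaled to gene length and library size, after an adjustment by replicate number that leaves some values below 0. All values below 0 were read as 0 in tests. The number of values below 0 was 223 and 559 in the WT libraries 1 and 2, against 227 and 500 in c-Rel-deficient libraries 1 and 2. Between 9765 and 10005 genes reached 1 RPKM in the 4 libraries. Read depth cannot be recovered from these values, so the precision of low values is unknown. Over all tested genes the median absolute difference between the 2 WT libraries was 0.34 on the log2 scale, against 0.18 between the 2 c-Rel-deficient libraries and 0.14 between the group means. Libraries of both groups stood apart from their partner. c-Rel-deficient library 2 had the lowest value of 19 of 20 Treg identity genes, and WT library 2 had the lowest value of 25 of 27 cell cycle genes. Medians of the lists are therefore given beside their values with libraries left out. Cd44, a gene of the sort gate, lay between 10.2 and 19.4 RPKM in the 4 libraries.

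The targeted gene was lower in both c-Rel-deficient libraries. Rel (chr11:23736847-23770970, minus strand, GENCODE vM21 on GRCm38) measured 10.9 and 20.5 RPKM in WT and 5.37 and 1.39 RPKM in c-Rel-deficient rTregs. The groups did not overlap, but c-Rel-deficient library 1 kept nearly 4 times the level of library 2. The means were 15.7 ± 6.82 and 3.38 ± 2.82 RPKM (SD, n = 2 each), a 4.65-fold lower level in the c-Rel-deficient group. In the authors' deposited table Rel fell by 2.48 on the log2 scale, with a Benjamini-Hochberg adjusted p of 4.75e-06. In limma on log2(RPKM + 0.5) the difference was -2.22 ± 0.46 (SE), with a Benjamini-Hochberg adjusted p of 0.627. Without c-Rel-deficient library 2 it was -1.40, and without library 1 it was -3.04.

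The other 4 subunit genes overlapped between the groups. Rela was at 71.5 and 69.0 RPKM in WT and at 70.8 and 71.5 RPKM in c-Rel-deficient rTregs, the steadiest of the family. Nfkb1 measured 70.3 and 82.7 RPKM against 72.6 and 67.2 RPKM. Relb, a subunit of the alternative NF-kB pathway, was at 26.5 and 21.9 RPKM against 30.8 and 22.4 RPKM, and its partner Nfkb2 at 23.4 and 31.5 against 42.1 and 24.6 RPKM. Log2 differences of these 4 genes lay between -0.13 (Nfkb1) and 0.24 (Nfkb2). The differences of Rela, Relb and Nfkb2 changed sign when 1 library was left out.

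**Figure D1:**
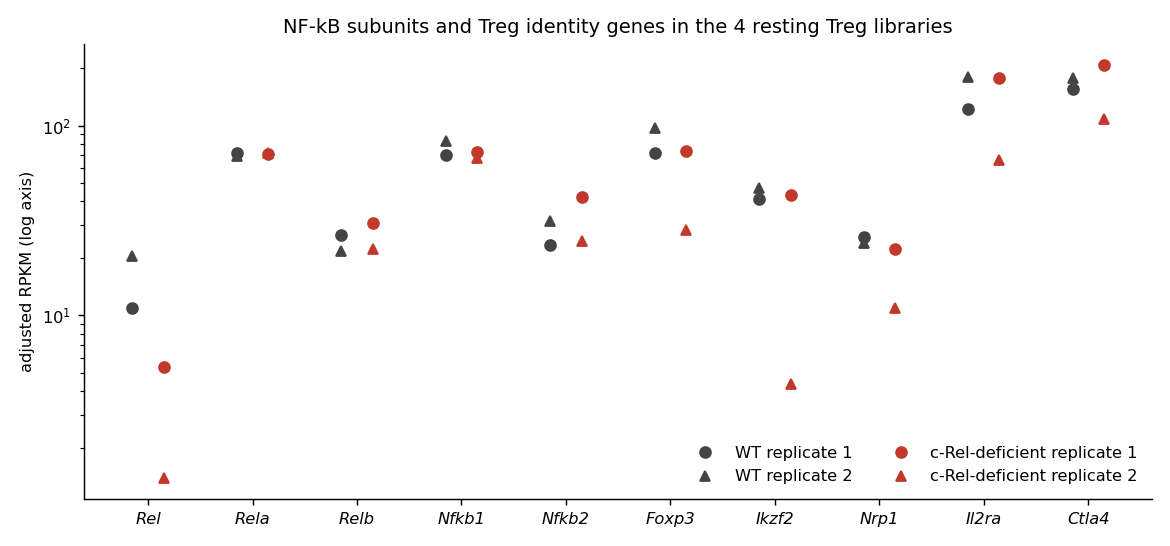
Adjusted RPKM (log axis) of the 5 NF-kB subunit genes and 5 Treg identity genes; each point is 1 library, black for WT and red for c-Rel-deficient rTregs, circles for replicate 1 and triangles for replicate 2. Rel is lower in both c-Rel-deficient libraries, while Foxp3, Ikzf2, Il2ra and Ctla4 are low in library 2 and within or above the WT values in library 1.

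Across the transcriptome, few genes were called as different between the genotypes. limma called 0 of 10656 tested genes (0%) at a Benjamini-Hochberg adjusted p of 0.05, with a lowest adjusted p of 0.627; 775 genes had an unadjusted p under 0.05, 355 higher (3.33%) and 420 lower (3.94%). Rel itself was not called by limma, so 0 calls do not show that the genotypes are alike. The p-values of the authors' deposited table, adjusted here over 14839 genes, called 4 genes (0.027%). Of these, 2 rose (0.0135%), Rell1 and Cmpk2, and 2 fell (0.0135%), Rel and Bcam. At an unadjusted p under 0.05 the same deposited table held 102 genes higher (0.687%) and 134 lower (0.903%). A single-gene exact permutation test of 2 against 2 libraries cannot go below p = 0.333, so none is given. Both c-Rel-deficient libraries lay below both WT libraries in 1509 tested genes (14.2%) and above both in 1314 (12.3%), and these shares are the background for the counts of such genes below. The median log2 difference of all tested genes was -0.016 with an SD of 0.27, and 34 genes were higher and 47 lower by more than 1.

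**Figure D2:**
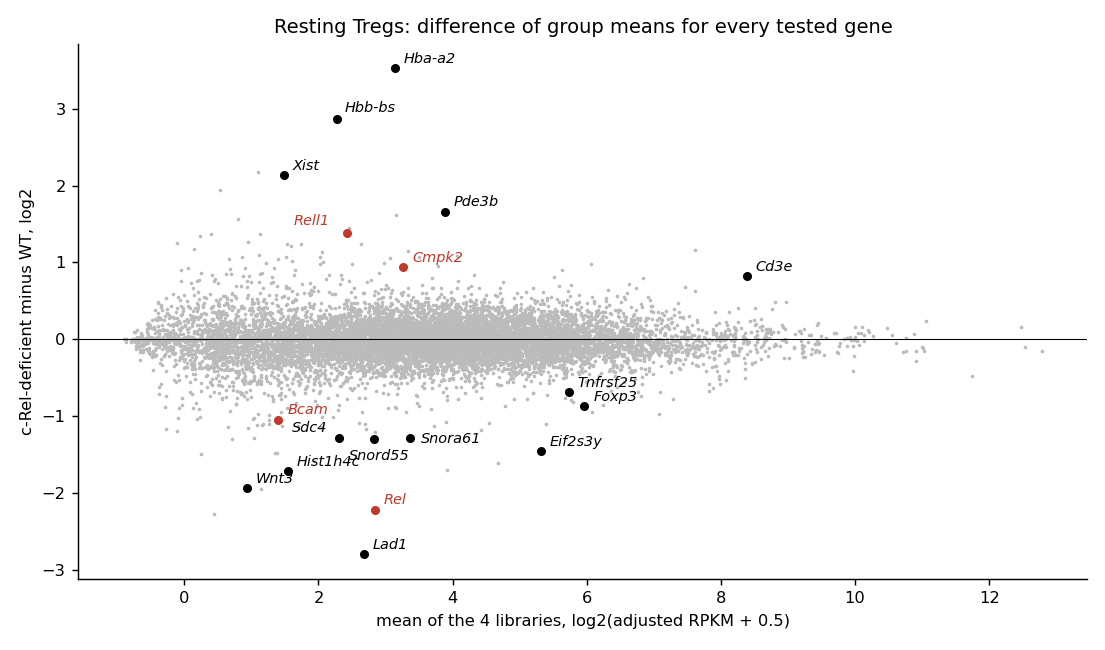
Difference between group means (c-Rel-deficient minus WT rTregs, log2) against the mean of the 4 libraries on the log2(adjusted RPKM + 0.5) scale, 1 grey point per tested gene. The 4 genes called from the authors' deposited table are in red and other genes named in the text in black. Of the labelled genes Lad1 lies lowest at -2.80 and Hba-a2 highest at 3.53.

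Among the named genes the most negative limma difference belonged to Lad1, ahead of Rel. In the authors' deposited table the order was the reverse, with Rel at -2.48 and Lad1 at -2.30. Lad1 encodes ladinin-1, a protein first described in the basement membrane of skin. It measured 15.8 and 17.0 RPKM in the WT libraries and 2.97 and 1.20 RPKM in the c-Rel-deficient libraries. The WT libraries were close to each other and the groups lay far apart, with a 7.86-fold lower mean in c-Rel-deficient rTregs. The limma difference was -2.80 ± 0.53 (SE), unadjusted p = 0.000313 and Benjamini-Hochberg adjusted p = 0.627. Lad1 also missed the threshold in the authors' deposited table, at -2.30 with an adjusted p of 0.0976. In p65-deficient rTregs it lay between the other groups, at 7.88 and 9.49 RPKM.

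Bcam, which encodes a laminin receptor that carries the Lutheran blood group, was at 3.09 and 3.51 RPKM in WT and at 2.05 and 0.821 RPKM in c-Rel-deficient rTregs. The authors' deposited table has a log2 fold change of -1.73 for Bcam, at an adjusted p of 0.00277, while the limma difference was -1.05 ± 0.30. Its level was below 5 RPKM in all 4 libraries, under the minimum of the naming rule, and it is named as 1 of the 4 called genes. Without c-Rel-deficient library 2 the difference of Bcam was -0.57.

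The next 3 genes were chosen after their values were seen. Wnt3, a secreted signalling ligand, measured 3.07 and 3.43 RPKM in WT and 0.772 and 0.249 RPKM in c-Rel-deficient rTregs (log2 difference -1.94 ± 0.36). Sdc4, which encodes the heparan sulfate proteoglycan syndecan-4, was at 6.85 and 7.62 RPKM against 3.49 and 2.03 RPKM (-1.28 ± 0.27). Ceacam-ps1, a transcribed pseudogene, was at 6.01 and 5.16 RPKM against 3.76 and 1.29 RPKM (-1.14 ± 0.33), and reads shared with its Ceacam relatives could be split uncertainly. In each of the 3 genes both c-Rel-deficient libraries lay below both WT libraries, with library 2 the lowest. None passed a test: limma gave an adjusted p of 0.627 for each, and the authors' deposited table an adjusted p of 0.551 for Wnt3, 1.0 for Sdc4 and 0.0622 for Ceacam-ps1.

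Of the called genes, Rell1 had the larger rise. It encodes a membrane protein related to the TNF receptor family member RELT. Rell1 measured 3.28 and 2.44 RPKM in WT and 9.09 and 7.45 RPKM in c-Rel-deficient rTregs. Each c-Rel-deficient library was at more than 2 times the level of the higher WT library, and the mean was 2.89-fold higher. The gene rose by 1.61 on the log2 scale in the authors' deposited table (adjusted p = 0.0101), and the limma difference was 1.39 ± 0.32. Leaving out any 1 of the 4 libraries kept it between 1.21 and 1.57.

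Cmpk2 encodes a mitochondrial nucleotide kinase induced by interferon. It was at 6.50 and 6.40 RPKM in WT and at 14.5 and 11.3 RPKM in c-Rel-deficient rTregs, a 2.00-fold higher mean. The authors' deposited table gave a rise of 1.04 (adjusted p = 0.0086), and limma a difference of 0.94 ± 0.17 (unadjusted p = 0.000177). Cmpk2 was as high in p65-deficient rTregs, at 14.2 and 16.8 RPKM.

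Lad1 and Rell1 are shown by the 250 bases before their start sites, as the named gene with the lowest limma difference and the one with the larger called rise. The sequences are from RefSeq on GRCm38.p6, on the strand of the gene, at chr1:135818348-135818597 (plus strand) and chr5:63968898-63969147 (minus strand). Capitals would mark a strict kappa B motif (GGG, any 2 bases, then TTTCC), searched on both strands, and neither window holds it.
Lad1: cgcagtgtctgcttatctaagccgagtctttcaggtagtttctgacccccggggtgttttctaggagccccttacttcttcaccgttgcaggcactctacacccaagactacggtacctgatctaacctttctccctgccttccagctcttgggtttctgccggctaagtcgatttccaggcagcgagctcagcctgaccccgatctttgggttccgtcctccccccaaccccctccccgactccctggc
Rell1: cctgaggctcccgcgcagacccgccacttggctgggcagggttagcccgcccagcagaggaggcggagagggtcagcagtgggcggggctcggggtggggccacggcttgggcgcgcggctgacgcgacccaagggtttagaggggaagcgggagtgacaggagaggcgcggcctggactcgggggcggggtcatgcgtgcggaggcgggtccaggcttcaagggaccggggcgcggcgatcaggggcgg
This strict motif was found in 1.65% of the 27025 RefSeq windows of this length and in 1.85% of those of 8208 tested genes. A looser form (GGG, any 5 bases, then CC), which holds every match of the first, was in 48.7% of all windows and in 66.8% of those of tested genes. It was in 2 places in the window of Rell1. No match says only that these letters are not in the window.

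TNF receptor superfamily members, costimulatory and death receptors of which several feed NF-kB, were mostly lower. Of 13 tested members 0 were called by limma, with 9 below 0 and 4 above 0, and the median log2 difference was -0.35 against -0.016 over all genes. Both c-Rel-deficient libraries lay below both WT libraries in 7 of 13 (53.8%, beside 14.2% of all tested genes) and above both in 1. The median stayed between -0.19 and -0.52 when each library was left out in turn.

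Tnfrsf25, the death receptor DR3 that expands Tregs when engaged, was at 68.4 and 65.1 RPKM in WT and at 44.1 and 38.7 RPKM in c-Rel-deficient rTregs. Replicates were close in both groups, and the limma difference was -0.69 ± 0.15 (unadjusted p = 0.00104, adjusted p = 0.627). In p65-deficient rTregs Tnfrsf25 was near WT, at 62.3 and 59.9 RPKM. Fas, a death receptor, measured 51.9 and 44.1 RPKM against 34.8 and 29.5 RPKM (-0.57 ± 0.15). Its groups did not overlap. Fas was as low in p65-deficient rTregs, at 30.1 and 33.1 RPKM, with a direct difference (c-Rel-deficient minus p65-deficient) of 0.02 ± 0.15.

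Tnfrsf4 (OX40) was at 308 and 249 RPKM against 197 and 174 RPKM, and Tnfrsf18 (GITR) at 373 and 254 RPKM against 231 and 184 RPKM. Both are costimulators known for high expression on Tregs, and the difference between the 2 WT libraries of Tnfrsf18 was larger than the gap between the groups. Tnfrsf9 (4-1BB), at 76.3 and 61.8 against 59.1 and 45.6 RPKM, had the same order. In p65-deficient rTregs Tnfrsf4 was at 170 and 251 RPKM, Tnfrsf18 at 210 and 257 RPKM and Tnfrsf9 at 37.9 and 58.8 RPKM. Direct differences (c-Rel-deficient minus p65-deficient) were -0.15 for Tnfrsf4, -0.17 for Tnfrsf18 and 0.135 for Tnfrsf9.

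IkB proteins and other feedback inhibitors, several of which hold NF-kB in the cytoplasm or end its activation, had a median of -0.21 over 12 tested members. Of these, 9 were below 0 and 3 above 0, 0 were called by limma, and 4 (33.3%) were below both WT libraries without overlap. Nfkbia, the gene of IkB-alpha and a classical NF-kB target, was at 349 and 259 RPKM in WT and at 229 and 193 RPKM in c-Rel-deficient rTregs (-0.52 ± 0.20). It was lower still in p65-deficient rTregs, at 171 and 169 RPKM. Cyld, a deubiquitinase that restrains NF-kB signalling, was the 1 member above both WT libraries in both c-Rel-deficient libraries: 28.9 and 33.7 against 39.0 and 40.1 RPKM (0.34 ± 0.12). The median of this list was -0.07 without c-Rel-deficient library 2, -0.09 without WT library 2, -0.17 without WT library 1 and -0.29 without c-Rel-deficient library 1.

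Of 78 named genes with a RefSeq window, 8 held the strict kappa B motif: Rel, Nfkb2, Nfkbia, Cyld, Tnfrsf9, Tnfrsf25, Bcl2l1 and Mvd. Beside this, 1.85% of the windows of tested genes held it, and the named genes include those taken from NF-kB lists. The 8 genes did not share a direction, as Nfkb2 overlapped between the groups and Cyld was higher. The windows of Tnfrsf25 (chr4:152115684-152115933, plus strand) and Nfkbia (chr12:55492648-55492897, minus strand) are shown as a lower receptor gene and a lower inhibitor gene, with the match in capitals.
Tnfrsf25: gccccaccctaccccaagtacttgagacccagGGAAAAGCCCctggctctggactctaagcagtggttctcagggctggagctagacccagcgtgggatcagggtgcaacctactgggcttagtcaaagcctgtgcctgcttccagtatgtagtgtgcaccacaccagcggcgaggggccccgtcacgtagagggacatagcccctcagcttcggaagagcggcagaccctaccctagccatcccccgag
Nfkbia: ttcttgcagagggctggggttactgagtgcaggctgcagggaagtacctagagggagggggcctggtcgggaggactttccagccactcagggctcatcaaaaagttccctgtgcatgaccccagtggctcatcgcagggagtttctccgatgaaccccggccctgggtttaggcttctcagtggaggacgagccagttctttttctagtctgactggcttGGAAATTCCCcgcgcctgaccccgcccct
The match begins 218 bases before the start site in Tnfrsf25 and 29 bases before it in Nfkbia. Both lie on the opposite strand to the motif as written.

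The 15 tested genes that carry the T cell receptor signal to NF-kB had a median of 0.09, with 10 above and 5 below 0, and 0 called by limma. They ranged from -0.20 (Sharpin) to 0.29 (Malt1), and the median was -0.04 without WT library 1 and 0.28 without WT library 2. The 9 tested genes of the alternative pathway had a median of -0.21, with 7 below 0 and 4 of 9 (44.4%) lower without overlap, from Tnfrsf4 at -0.58 to Map3k14, which encodes the kinase NIK, at 0.52. That median was -0.05 without c-Rel-deficient library 2 and between -0.30 and -0.19 without each of the others. The 17 tested genes linked to c-Rel in lymphocytes had a median of -0.26, with 12 below 0 and 3 lower without overlap (17.6%). It turned to 0.22 without c-Rel-deficient library 2 and to 0.04 without WT library 1, and was -0.47 and -0.59 without the other 2. In this list Foxp3 was lowest and Cd40lg highest, at 63.8 and 27.6 RPKM in WT and 47.3 and 89.4 RPKM in c-Rel-deficient rTregs, where the groups overlapped.

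Treg identity genes were lower on average, and c-Rel-deficient library 2 carried this. Foxp3 (chrX:7573644-7595245) measured 71.9 and 97.5 RPKM in WT and 73.6 and 28.1 RPKM in c-Rel-deficient rTregs. The first c-Rel-deficient library was thus within the WT values and the second far below them. The limma difference of Foxp3 was -0.87 ± 0.37 (adjusted p = 0.681), and it was -0.18 without c-Rel-deficient library 2. Ikzf2, the gene of the transcription factor Helios, had the same pattern in a stronger form, at 41.2 and 47.0 RPKM against 43.2 and 4.35 RPKM. Without that library its difference moved from -1.61 to -0.03. The receptor subunit Il2ra (122 and 180 against 178 and 65.5 RPKM) and the inhibitory receptor Ctla4 (156 and 178 against 209 and 108 RPKM) were highest or nearly so in c-Rel-deficient library 1 and lowest in library 2. Nrp1, a marker of Tregs of thymic origin, was below both WT libraries in both, at 25.9 and 24.2 against 22.2 and 10.9 RPKM (-0.67 ± 0.32).

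Over the 20 tested identity genes, 19 were below 0 and 1 above, with a median of -0.38, 0 calls by limma and 5 (25%) lower without overlap. The median became 0.01 without c-Rel-deficient library 2 and was between -0.85 and -0.41 without each of the others. Within replicate number 1 it was 0.08, and within replicate number 2 it was -0.82. In bulk RNA, fewer cells of a type and less RNA per cell cannot be told apart, so a lower share of Foxp3-positive cells in that library and a lower level per cell would look alike here. Effector Treg genes, such as Irf4 at 10.8 and 7.86 against 12.8 and 2.62 RPKM, had a median of -0.06 over 28 tested members, and c-Rel-deficient library 2 was lowest in 19 of them. Their median was 0.33 without that library, 0.21 without WT library 1, and -0.34 and -0.41 without the other 2.

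Genes of the resting state and of homing to lymphoid organs had a median of 0.12 over 21 tested members, 12 above and 9 below 0. Actn1, the gene of the cytoskeletal protein alpha-actinin, measured 61.6 and 95.5 RPKM in WT and 85.6 and 188 RPKM in c-Rel-deficient rTregs. Dapl1 was at 65.1 and 27.3 against 37.1 and 129 RPKM, and Igfbp4 at 417 and 340 against 475 and 588 RPKM. All 3 were highest in c-Rel-deficient library 2, and without it the median of the list was -0.08, against 0.08 to 0.20 without each of the others.

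Cish, Pim1 and Socs1 were lower in both c-Rel-deficient libraries, while most genes of interleukin 2 signalling overlapped between the groups. Cish, a feedback inhibitor induced by STAT5, was at 182 and 162 RPKM in WT and at 127 and 89.6 RPKM in c-Rel-deficient rTregs (-0.68 ± 0.18, unadjusted p = 0.00303 in limma). The kinase gene Pim1 measured 136 and 139 against 96.7 and 75.3 RPKM (-0.68 ± 0.25), and the inhibitor Socs1 101 and 96.0 against 81.2 and 50.7 RPKM (-0.61 ± 0.23). Groups did not overlap for these 3 genes, and library 2 was the lowest each time. Over the 16 tested members of the IL-2 receptor and STAT5 list, 11 were below 0 and 5 above, 0 were called by limma, 4 (25%) were lower without overlap and the median was -0.15. Overlapping members included the targets Socs2, Socs3, Pim2 and Bcl2. The median was 0.07 without c-Rel-deficient library 2 and between -0.35 and -0.14 without each of the other libraries.

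Early genes of T cell receptor signalling were lower in 17 of 23 tested members, with a median of -0.14, 4 (17.4%) lower and 1 higher without overlap, and 0 called by limma. Jun, an AP-1 subunit, was at 94.4 and 53.9 RPKM in WT and at 30.8 and 54.4 RPKM in c-Rel-deficient rTregs. Fos was at 163 and 65.2 against 54.9 and 76.3 RPKM, and the phosphatase gene Dusp2 at 382 and 274 against 210 and 237 RPKM. WT library 1 was the highest of the 4 for each of these genes and for 11 of the 23. The median of the list was -0.11 without WT library 1, -0.26 without WT library 2, -0.24 without c-Rel-deficient library 1 and -0.007 without c-Rel-deficient library 2. WT library 1 was also the highest in 12 of 15 tested stress and dissociation genes. That list shares Jun and Fos with the early genes and holds Dusp1, at 252 and 165 against 104 and 137 RPKM, and its summed level was 2661 and 2035 RPKM in WT against 1797 and 2123 RPKM in c-Rel-deficient rTregs. The part of sorting stress in these differences was not tested.

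Apoptosis regulators had a median of -0.18 over 20 tested genes, 16 below and 4 above 0, with 5 (25%) lower without overlap and 0 called by limma. Besides Fas, the survival gene Bcl2l1 was at 10.3 and 9.79 RPKM in WT and at 8.79 and 5.69 RPKM in c-Rel-deficient rTregs. Its difference was -0.48 ± 0.28. The median of the list was -0.007 without c-Rel-deficient library 2 and between -0.31 and -0.07 without each of the others.

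**Figure D3:**
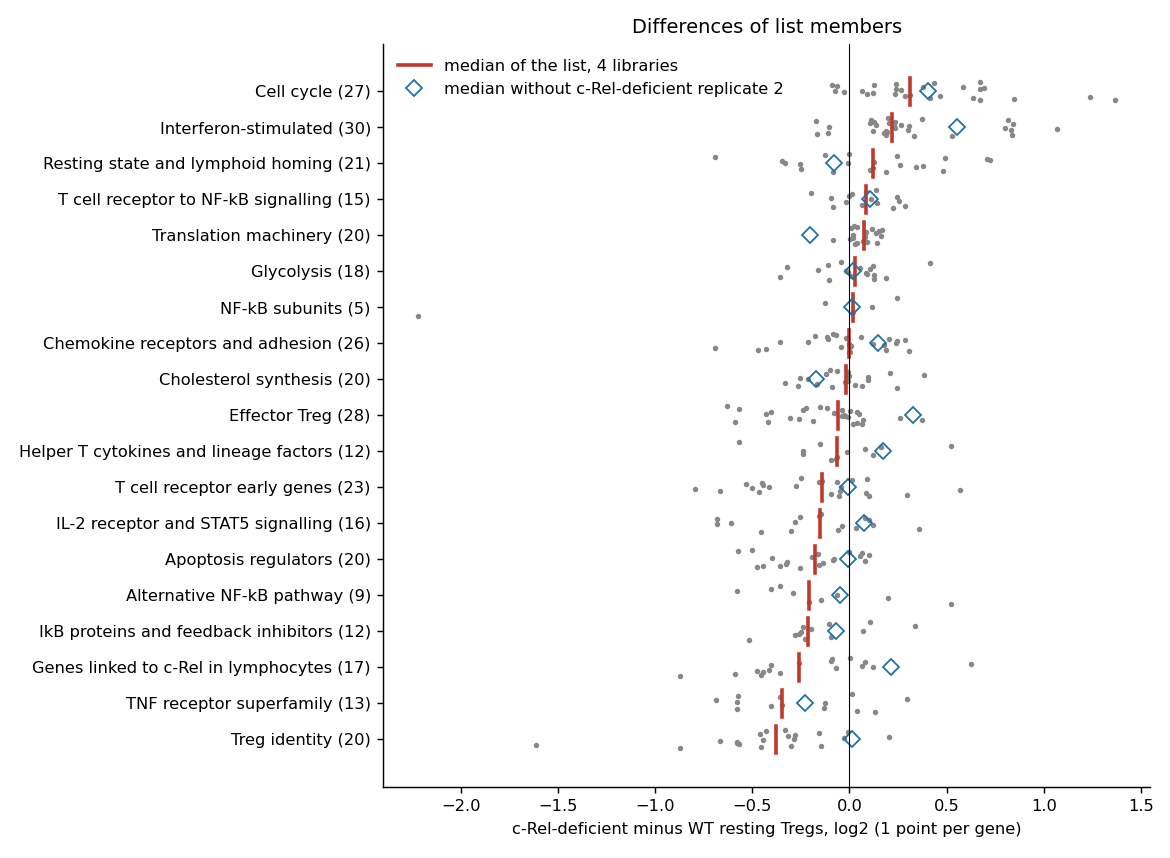
Log2 differences (c-Rel-deficient minus WT rTregs) of the tested members of 19 gene lists, 1 grey point per gene with the number tested in brackets, the list median in red and the median without c-Rel-deficient replicate 2 as a blue diamond. Treg identity has the lowest median, -0.38, which moves to 0.01 without that library, while the TNF receptor superfamily moves from -0.35 to -0.23 and the interferon-stimulated list from 0.22 to 0.55.

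Interferon-stimulated genes, which encode antiviral enzymes and sensors, were mostly higher. Of 30 tested members 26 were above 0 and 4 below, with a median of 0.22 and 0 calls by limma. Both c-Rel-deficient libraries lay above both WT libraries in 10 of 30 (33.3%, beside 12.3% of all tested genes) and below both in 0. Oas3, a synthetase of the RNase L pathway, was at 6.21 and 8.53 RPKM in WT and at 17.4 and 14.3 RPKM in c-Rel-deficient rTregs (1.07 ± 0.22, a 2.15-fold higher mean). Ifit3 measured 17.5 and 12.0 against 27.7 and 24.96 RPKM (0.84 ± 0.33), and Rsad2, the gene of viperin, 2.32 and 1.40 against 3.70 and 3.59 RPKM (0.84 ± 0.20). Ifit3b, a near copy of Ifit3 with which reads may be shared, was chosen after its values were seen and measured 2.85 and 1.86 against 5.07 and 5.72 RPKM. For these 4 genes the c-Rel-deficient libraries were close to each other and above WT. Guanylate-binding genes of the list such as Gbp2, Gbp3 and Gbp6 were high in c-Rel-deficient library 1 but not in library 2, and the median of the list was 0.51 within replicate number 1 and 0.12 within number 2. Without c-Rel-deficient library 1 the median was 0.02, and it was 0.55 without library 2 and 0.26 without either WT library.

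The p65-deficient rTregs, set beside the same WT libraries, were higher in these genes as well. There Oas3 was at 15.6 and 18.9 RPKM, Ifit3 at 36.0 and 42.6 RPKM and Ifit3b at 6.82 and 8.75 RPKM. Both p65-deficient libraries lay above both WT libraries in 27 of the 30 genes, beside 13.9% of all tested genes. Since both comparisons use the same 2 WT libraries, a low value in these libraries raises both differences. In the direct contrast of c-Rel-deficient against p65-deficient rTregs, which has no WT library, the median of the list was -0.36. The adjusted p-values of the authors' deposited table called 5 genes in p65-deficient rTregs (0.0337%). In the authors' deposited table Cmpk2 rose there by 1.31 (adjusted p = 2.71e-05), Ifit3b by 1.76 (adjusted p = 0.000109) and Ifit3 by 1.38 (adjusted p = 0.0218).

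A motif of interferon-response elements (GAAA, any 2 bases, then GAAA), chosen after the data were seen and searched on both strands, was in 3.29% of the windows of tested genes and in 10 of the 20 windows of interferon-stimulated genes (50%). The strict kappa B motif was in 0 of these 20. Oas3 (chr5:120777662-120777909, minus strand, 248 bases) and Ifit3 (chr19:34583279-34583528, plus strand) are shown as 2 separated members of the list, with matches in capitals.
Oas3: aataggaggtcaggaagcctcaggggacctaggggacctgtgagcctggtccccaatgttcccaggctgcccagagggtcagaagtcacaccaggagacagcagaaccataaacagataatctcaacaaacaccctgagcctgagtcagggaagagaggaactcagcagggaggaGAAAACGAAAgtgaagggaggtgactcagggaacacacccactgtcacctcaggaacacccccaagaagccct
Ifit3: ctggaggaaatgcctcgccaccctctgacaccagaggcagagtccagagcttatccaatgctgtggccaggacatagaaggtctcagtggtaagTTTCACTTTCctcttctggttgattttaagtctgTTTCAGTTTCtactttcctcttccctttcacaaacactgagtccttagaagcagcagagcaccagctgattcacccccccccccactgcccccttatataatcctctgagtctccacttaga
The match of Oas3 begins 75 bases before the RefSeq start site, and the 248 bases shown leave out those next to that site. The matches of Ifit3 begin 156 and 122 bases before its start site. A match is a description and not a shown binding site.

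**Figure D4:**
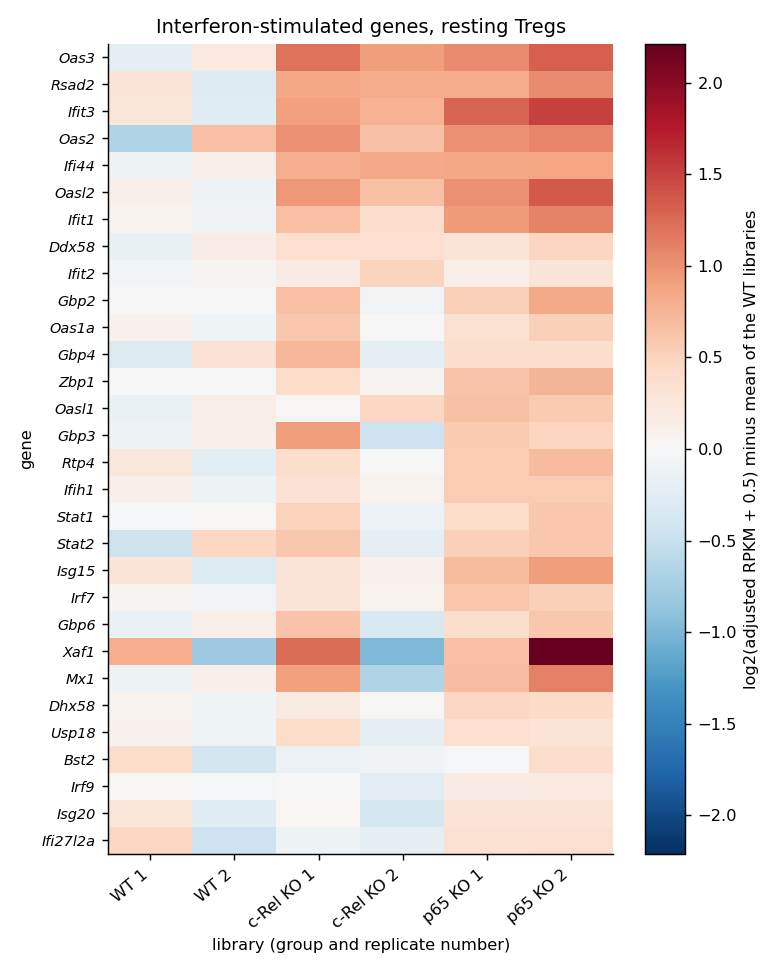
The 30 tested interferon-stimulated genes (rows, sorted by the c-Rel-deficient minus WT difference) in 2 WT, 2 c-Rel-deficient and 2 p65-deficient rTreg libraries (columns); colour is log2(adjusted RPKM + 0.5) minus the mean of the WT libraries. The upper rows, from Oas3 to Ifit2, are red in both c-Rel-deficient libraries, the rows under them mostly in library 1 or in neither, and nearly all rows are red in both p65-deficient libraries.

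Cell cycle genes were nominally higher, with 23 of 27 tested members above 0, a median of 0.31, 5 (18.5%) higher without overlap and 0 called by limma. WT library 2 was the lowest of the 4 in 25 of them. Ccna2, the gene of cyclin A, was at 2.64 and 0.090 RPKM in WT and at 4.75 and 1.85 RPKM in c-Rel-deficient rTregs. Top2a measured 11.6 and 0.864 against 14.4 and 5.66 RPKM, and Stmn1 43.8 and 18.8 against 48.5 and 43.7 RPKM. WT library 1 was within or near the range of the c-Rel-deficient libraries for these genes. The median was -0.04 without WT library 2 and -0.02 without c-Rel-deficient library 1, against 0.51 without WT library 1 and 0.40 without c-Rel-deficient library 2. Both p65-deficient rTreg libraries lay above the same 2 WT libraries in 24 of the 27 genes, beside 13.9% of all tested genes. In the direct contrast of c-Rel-deficient against p65-deficient rTregs the median of the list was -0.38.

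The 20 translation genes had a median of 0.08 with 0 separated in either direction, and c-Rel-deficient library 2 was the highest in 19 of them. Their median was -0.20 without it and 0.33 without c-Rel-deficient library 1. Glycolysis genes (18 tested) had a median of 0.03 and cholesterol synthesis genes (20 tested) one of -0.02. Slc16a1, a lactate transporter, was at 9.50 and 8.90 against 12.0 and 12.9 RPKM (0.41 ± 0.11), and Dhcr7, the last enzyme of cholesterol synthesis, at 15.1 and 17.4 against 20.5 and 22.1 RPKM (0.38 ± 0.12). In both genes the groups did not overlap, and limma gave each an adjusted p of 0.627. The p65-deficient rTregs lay above the same 2 WT libraries too, with Slc16a1 at 13.7 and 12.4 RPKM and Dhcr7 at 20.9 and 20.5 RPKM. Direct differences (c-Rel-deficient minus p65-deficient) were -0.07 for Slc16a1 and 0.04 for Dhcr7. Chemokine receptors and adhesion genes (26 tested) had a median of -0.002, and helper T cytokines and lineage factors (12 tested) one of -0.07. With each library left out these 2 medians ran from -0.20 to 0.15 and from -0.41 to 0.31.

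Pde3b, a cAMP phosphodiesterase that Foxp3 represses, was at 13.7 and 4.35 RPKM in WT and at 15.0 and 43.9 RPKM in c-Rel-deficient rTregs (1.66 ± 1.61). WT library 1 and c-Rel-deficient library 1 were nearly equal, and the difference was 0.91 without c-Rel-deficient library 2 and 0.89 without WT library 2. Tgfbr3, the gene of betaglycan, was chosen after its values were seen and measured 5.54 and 7.04 against 9.98 and 20.9 RPKM. Cd3e, a chain of the T cell receptor complex, was at 222 and 283 against 519 and 381 RPKM (0.82 ± 0.21, unadjusted p = 0.00234 in limma) and stayed between 0.60 and 1.05 with each library left out. Cd4 was at 219 and 207 against 235 and 318 RPKM. Over the 8 tested T lineage markers the median was 0.15, and their summed level was 3611 and 2736 RPKM in WT against 3313 and 3498 RPKM in c-Rel-deficient rTregs. The small RNA genes Snord55 (13.3 and 8.44 against 3.84 and 4.24 RPKM) and Snora61 (13.7 and 17.6 against 7.71 and 4.79 RPKM), which lie within introns of host genes, and the histone gene Hist1h4c (6.601 and 3.43 against 0.364 and 2.50 RPKM) were lower in both.

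Listed markers of other cell types, and transcripts that mark the sex of the mice, were also compared. The 6 listed erythroid markers summed to 20.8 and 0.238 RPKM in WT and to 26.9 and 82.05 RPKM in c-Rel-deficient rTregs, with values below 0 counted as 0. At or below 0 were 2 markers in WT library 1, the 3 globin genes in WT library 2, 1 marker in c-Rel-deficient library 1 and none in library 2. Hba-a2, an alpha globin, was listed at 13.03 and -3.0 RPKM against 16.6 and 52.1 RPKM, and Hbb-bs at 5.95 and -1.20 against 6.89 and 22.8 RPKM. The globin genes were thus high in c-Rel-deficient library 2 and listed below 0 in WT library 2, while both libraries numbered 1 were near each other. The 14 B cell markers summed to 33.3 and 19.9 against 50.4 and 12.6 RPKM, the 15 myeloid markers to 503.0 and 344 against 350 and 358 RPKM, the 10 NK and cytotoxic markers to 35.2 and 14.4 against 39.2 and 37.1 RPKM, and the 6 CD8 T cell markers to 50.3 and 32.2 against 29.7 and 36.7 RPKM. The 5 plasma cell markers summed to 87.4 and 75.7 against 87.9 and 62.8 RPKM. Of these sums only those of erythroid and of NK and cytotoxic markers did not overlap between the groups. Single genes made up much of some sums. In WT library 1, Ctss of the myeloid list was at 375 RPKM and Xbp1 of the plasma cell list at 83.6 RPKM. Klrd1 and Prf1 of the NK and cytotoxic list were at 14.0 and 18.1 RPKM in c-Rel-deficient library 2. The sums therefore do not show from which cells this RNA came. Listed at or below 0 in both libraries numbered 2 were the NK genes Klrb1c, Klrk1 and Xcl1 and the macrophage gene Adgre1, and at or below 0 in c-Rel-deficient library 2 alone were H2-Aa, H2-Eb1, Fcer1g, Cd14 and Mpeg1. The Y-linked gene Eif2s3y was at 66.0 and 64.7 RPKM in WT and at 18.0 and 30.5 RPKM in c-Rel-deficient rTregs. Ddx3y (26.1 and 39.1 against 12.3 and 15.5 RPKM), Kdm5d and Uty, chosen after their values were seen, were also lower without overlap. Xist, expressed from the inactive X chromosome, was at 3.08 and -1.94 against 6.51 and 4.41 RPKM. Their part in the other differences was not tested.

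The named genes were then followed in activated and stimulated Tregs. The aTreg libraries enter the limma fit and share the adjustment, apparently by replicate number, so they are not a separate set. Of 11 genes named by size or call, Rel left out, 9 had the same direction in aTregs, and 4 of the 9 measured in stimulated Tregs did. For the 3 genes other than Rel called from the authors' deposited table, these counts were 3 of 3 and 2 of 3. The 9 genes with the same direction in aTregs include the globin genes Hba-a2 and Hbb-bs and the sex-linked genes Xist and Eif2s3y. No share over all tested genes is given, so these counts have no background. The aTreg libraries numbered 3 had less Cd44 than their partners (26.4 RPKM in WT beside 49.4 and 45.2 RPKM in WT libraries 1 and 2, and 32.9 RPKM in c-Rel-deficient beside 61.2 RPKM in library 2), so that they lay closer to resting cells in this marker of the gate.

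Rell1 was at 3.36, 3.23 and 1.37 RPKM in WT aTregs and at 7.33 and 8.37 RPKM in c-Rel-deficient aTregs, and rose there by 1.49 in the authors' deposited table (adjusted p = 0.00275). Rel itself was at 55.05 and 55.8 RPKM in stimulated WT Tregs and at 2.44 and 24.96 RPKM in stimulated c-Rel-deficient Tregs, without overlap. Rell1 overlapped between the stimulated groups, with 8.07 and 3.64 against 6.33 and 7.56 RPKM. Lad1 was at 4.39, 4.55 and 13.6 RPKM in WT aTregs against 1.15 and 0.414 RPKM, and the authors' deposited table has it lower there by a log2 value of -2.14 (adjusted p = 0.0199). Stimulated WT and c-Rel-deficient Tregs overlapped in Lad1, at 11.7 and 24.7 against 13.9 and 6.91 RPKM.

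Bcam and Sdc4 had the same order in all 3 states. Bcam was at 6.69, 6.10 and 6.69 against 3.62 and 1.97 RPKM in aTregs and at 5.73 and 7.08 against 1.87 and 3.16 RPKM after stimulation. Sdc4 was at 12.5, 10.5 and 10.6 against 5.53 and 2.95 RPKM in aTregs and at 13.7 and 8.52 against 1.46 and 3.31 RPKM after stimulation. In the authors' deposited table both were lower in c-Rel-deficient than in WT stimulated Tregs, Sdc4 by 2.27 (adjusted p = 3.02e-09) and Bcam by 1.35 (adjusted p = 0.0193). Tnfrsf4 and Tnfrsf18 were also lower without overlap in aTregs, at 578, 429 and 382 against 295 and 258 RPKM and at 338, 348 and 334 against 252 and 235 RPKM, with no call there. Between c-Rel-deficient and WT stimulated Tregs, Foxp3 was lower by 1.11 in the authors' deposited table (adjusted p = 5.44e-05), and Pde3b higher by 2.68 (adjusted p = 6.83e-20). Pde3b was at 2.27 and 2.67 RPKM in stimulated WT and at 21.7 and 7.03 RPKM in stimulated c-Rel-deficient Tregs.

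**Figure D5:**
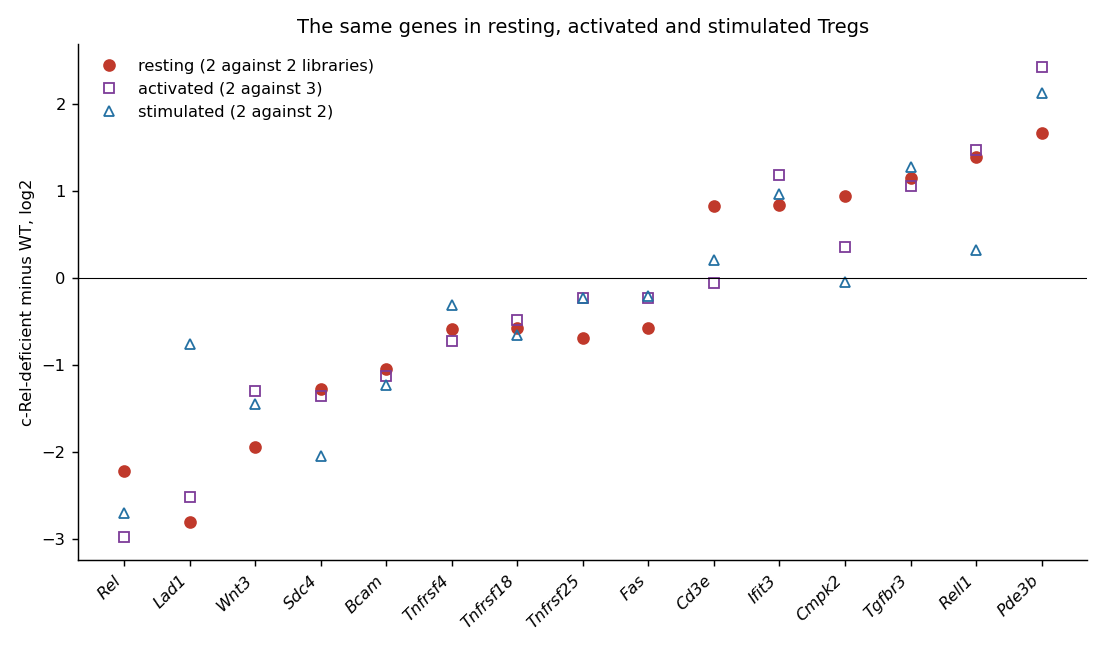
Log2 differences (c-Rel-deficient minus WT) of 15 genes in resting Tregs (filled red circles), activated Tregs (open purple squares) and stimulated Tregs (open blue triangles), each the difference of group means of log2(RPKM + 0.5). Rel, Sdc4, Bcam and Wnt3 lie below 0 in all 3 states, while Lad1 is near -2.8 and -2.5 in the sorted cells and -0.76 after stimulation.

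Whether the effect of c-Rel loss differed between aTregs and rTregs was tested as an interaction. limma called 0 of 10656 genes (0%; 497 at an unadjusted p under 0.05, lowest Benjamini-Hochberg adjusted p 0.507). The small RNA gene Snord55, lower in rTregs, was higher in c-Rel-deficient aTregs, at 4.49, 5.96 and 3.28 against 8.83 and 10.3 RPKM. Its interaction was 2.31, with an unadjusted p of 4.76e-05 and a limma adjusted p of 0.507. For Cd3e the interaction was -0.88 (unadjusted p = 0.00991 in limma), as aTregs showed 347, 364 and 407 against 379 and 338 RPKM. By count of calls, the adjusted p-values of the authors' deposited table named 77 genes in aTregs (0.519%) and 306 in stimulated Tregs (2.14%), beside the 4 in rTregs, in fits whose terms are not given.

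Set directly against p65-deficient rTregs, c-Rel-deficient rTregs differed in 0 genes by limma (0%; 215 of 10656 at an unadjusted p under 0.05, lowest Benjamini-Hochberg adjusted p 0.568). Rell1 was at 3.20 and 2.18 RPKM without p65, and the direct difference was 1.47 ± 0.32 (unadjusted p = 0.000963 and adjusted p = 1.0 in limma). Rel itself was at 11.1 and 13.8 RPKM without p65, and Lad1 was lower without c-Rel by 1.91 ± 0.53 than without p65. Sdc4 was similarly low in both, at 2.25 and 2.85 RPKM without p65, with a direct difference of 0.07 ± 0.27. Relb was at 14.4 and 14.5 RPKM without p65 and higher by 0.84 ± 0.25 without c-Rel (unadjusted p = 0.00709 in limma). At the adjusted threshold none of these direct differences was called.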

How the data were processed

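RNA libraries (TruSeq v2) of sorted Tregs were sequenced. The tools STAR and DESeq2 1.10.1 and the build mm10 are named, with no role given, in the submitters' processing notes. Per the file headers, the authors deposited RPKM per library with log2 fold changes and p-values of their comparisons. A further adjustment, on which the headers are silent, was applied: 2.535% of the values lie below 0 (lowest -30.68), and 15883 nonzero values are equal between libraries of the same number against 0 between different numbers. Decimal commas were read as points. Of 14839 listed genes, 21 have a date for a symbol and no library values. All per-sample columns were mapped by their names.

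Values below 0 were set to 0, and log2(RPKM + 0.5) of the 10656 genes that reached 1 RPKM in 2 or more libraries was fitted in limma 3.58.1 (R 4.3.3, group means over all 13 sorted libraries, eBayes with trend, two-sided, Benjamini-Hochberg, threshold 0.05). A fold change on this scale understates that of low genes. The p-values of the authors were adjusted here over all listed genes with the same method. Tables were handled in Python 3.11.15 with pandas 2.3.3 and numpy 2.4.6, and figures drawn with matplotlib 3.10.9. The procedure was tested on simulated data.

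Named genes were the 5 subunits, Foxp3 and genes of the sort gate, then up to 10 called or 6 uncalled largest differences in each direction without overlap and with 5 RPKM or more, then up to 3 members of each list with 3 RPKM or more; rows without library values were left out. The comparison, the gene lists and this rule were chosen with earlier results of these data known. Deviations from group means of same-numbered WT and c-Rel-deficient rTreg libraries correlated at 0.044, those of WT and p65-deficient libraries at 0.084 and those of p65-deficient and c-Rel-deficient libraries at 0.442. An adjustment by number may itself alter these values, the labels give the numbers no meaning, and they were not used as pairs. Gene positions are from GENCODE vM21 (GRCm38) and promoter windows from RefSeq (GRCm38.p6), with bases inside the annotated gene left out. Some genes of the named rule are not reported here.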

Additional observations from a re-analysis of the deposited data

How the results depend on the processing

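The count of 0 genes called by limma between c-Rel-deficient and WT rTregs held under pseudocounts of 0.1 and 1 and under no filter. It also held under a filter of 3 RPKM, robust variance, median-of-ratios scaling, a replicate block and a fit of the compared groups alone. The same held when genes with values below 0 were left out and, chosen after the data were seen, without both libraries numbered 3. Genes at an unadjusted p under 0.05 numbered 2770 without WT library 2, 382 without c-Rel-deficient library 2 and 196 in the fit of the compared groups alone, against 775; the lowest adjusted p over these alternatives ran from 0.0565 to 1.0. With a replicate block there were 614. For the interaction with aTregs, the replicate block gave 3 calls in place of 0 (Siglech, Tyrobp and Stfa3), and the cause was not tested. Leaving out each WT aTreg library gave 0 calls. Leaving out a library of another compared group, in this or the other contrasts, leaves 1 library in that group. No count is given for those fits, and the statements on 0 calls do not cover them. The block changed no other call, and the numbers are not known to pair the libraries. The direct contrast with p65-deficient rTregs stayed at 0 in the fits that kept 2 libraries in each compared group. The deposited p-values called 4 genes over tested genes alone and 3 at a threshold of 0.01.

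Over 62 named genes, 11 of 865 differences changed direction, all when 1 library was left out. Settings such as the filters, robust variance and the fit of the compared groups alone do not alter a difference between group means. Agreement under those settings was fixed in advance and says nothing on stability. Ranges over the left-out libraries were -0.007 to 0.045 for Rela, -0.11 to 0.34 for Relb, -0.14 to 0.63 for Nfkb2, -0.50 to 0.34 for Cd44, -1.64 to 0.46 for Irf4, -0.18 to 1.60 for Dapl1, -0.33 to 2.81 for Top2a, -0.62 to 0.33 for Ctla4 and -1.17 to 0.27 for Il2ra. Depth is unknown, so the counting error of genes near 1 RPKM cannot be given.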
